A study of Rattus norvegicus with 241 samples.

Results

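Axon guidance genes encode secreted or membrane-bound cues and the receptors that read them, and 67 such gene symbols were found among the 21707 symbols of the deposited rat mammary gland tables. They were selected by name as the semaphorins, plexins, neuropilins 1 and 2, Slits, Robos, netrins, Unc5 receptors, ephrins and Eph receptors, without the SLITRK genes. The set held 20 semaphorins, 9 plexins, 2 neuropilins, 3 Slits, 3 Robos, 4 netrins, 5 Unc5 symbols, 8 ephrins and 13 Eph receptors. The bulk tables held 62 of them among 16820 symbols and lacked EFNA3, EPHA8, EPHB4, PLXNA1 and PLXNC1. The sorted single-cell tables held 59 in ACI rats and 60 in SD rats, and the whole-gland tables held 66. UNC5CL matched by its name and is described with the Unc5 receptors, although it is not a transmembrane netrin receptor.

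The experiments asked how a short pharmacological block of the TGFβ receptor changes the mammary gland of ACI and Sprague-Dawley (SD) female rats. TGFBRi was LY2157299, given by oral gavage at 75 mg/kg 2 times a day, and each treated group had rats given vehicle alone. Bulk RNA-seq covered 202 libraries from sorted basal, luminal and CD45+ cells or from tumor cells, and single-cell RNA-seq gave 39 tables.

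In young ACI rats dosing began at 35 days of age and lasted 10 days, and glands were sampled 0, 7 or 14 days after the last dose, with 3 rats per group in each sorted fraction. For the day 7 basal and luminal libraries of rat LD2LR the treatment label and the title name a control and the description a treated rat, and both were kept as vehicle. The CD45+ library of TGFBRi rat LD9R has day 9 in its title and day 7 in its other labels, and was kept in the day 7 group. In young SD rats dosing began at 24 days of age, also for 10 days, and glands were sampled on day 0, with 4 per group in the bulk libraries. The single-cell rats were young ACI and SD rats with the same starting ages and days of dosing, sampled on day 0. Sorted single cells came from 3 vehicle and 3 TGFBRi ACI rats and from 3 vehicle and 6 TGFBRi SD rats. Whole glands came from 3 vehicle and 6 TGFBRi SD rats. The labels call 2 of the 4 treated SD rats of the bulk libraries weak and 2 strong responders, and these 4 were kept as 1 group. Adult ACI rats of 18 to 24 weeks were virgin or parous, were dosed for 10 days and were sampled on day 0. There were 4 rats per group of basal and of luminal cells, and 2 to 4 per group of CD45+ cells. In the carcinogen experiment SD rats were dosed for 10 days from 21 days of age, received the carcinogen NMU (N-nitroso-N-methylurea, 50 mg/kg), and were examined up to day 87. That experiment had 3 tumor-bearing vehicle rats, and 3 tumor-free and 3 tumor-bearing TGFBRi rats per fraction. No vehicle library came from a tumor-free rat, so TGFBRi and tumor status cannot be told apart in the tumor-free comparison. In the estrogen experiment ACI rats were dosed for 21 days from 38 days of age, with or without a 37 mg estradiol (E2) pellet. According to the paper, these glands were taken when the tumor experiment ended, long after the last dose. Without the pellet there were 4 vehicle and 3 TGFBRi rats per fraction, and with it 4 vehicle, 2 tumor-bearing TGFBRi and 4 tumor-free TGFBRi rats. Of the 7 tumor-free libraries with a pellet, the 4 named A4-15pt1 to A4-15pt4 were taken as 1 rat and averaged. All vehicle rats with a pellet bore tumors, so the pellet and tumor status cannot be told apart there. Basal cells were sorted as CD45-CD31-CD24+CD29high and luminal cells as CD45-CD31-CD24+CD29low, without a genetic label, so a fraction can carry other cells with the same surface markers.

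Semaphorins signal through plexins, with neuropilins as co-receptors for the secreted class 3 members, and Slits signal through Robos. Netrins act through DCC and Unc5 receptors, and ephrins and Eph receptors, both held at the cell surface, signal between touching cells. Outside the nervous system these families are known for sorting cells at boundaries, for shaping vessels and for branching of epithelial ducts. In the mammary gland Slit2 with Robo1, and netrin-1 with its receptor neogenin, are known from mouse work for holding the basal and luminal layers together.

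The bulk libraries held 4194912 to 52314784 reads assigned to genes. The single-cell tables held 16762 sorted ACI cells, 39766 sorted SD cells and 103524 whole-gland cells, with table medians of 2820 to 15941 unique molecules (UMIs) per cell. At most 2.51% of the barcodes of a table were shared with another table of its kind. Basal libraries expressed the basal marker list (KRT5, KRT14, TP63 and others), of which 8 of 8 tested genes were higher in basal than in luminal cells in both strains. The summed list stood at 146820 to 449390 normalised reads in ACI basal libraries and 1023 to 5114 in ACI luminal ones. In SD rats it stood at 123560 to 155230 in basal libraries and 4558 to 68721 in luminal ones. The luminal library of rat C6N held the 68721, which left it between the fractions, whereas the other 3 luminal libraries of that group held 4558 to 12004. SD basal libraries also carried fibroblast-list transcripts at 371230 to 594390 normalised reads against 5001 to 19793 in luminal libraries, and the ACI basal libraries carried 15543 to 127570.

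The promoters of SEMA3C, SEMA3D, SEMA6D and ROBO1 are shown because these genes were high in basal cells of both strains by both assays and lower after TGFBRi in adult virgin basal cells without overlap between the groups. SEMA5A also met this rule, and no window is shown for it. Each is the 300-base RefSeq window, from 250 bases before to 50 bases after the start, read 5′ to 3′ on the strand of the gene in build GRCr8. Capitals mark CAGAC or its reverse complement GTCTG, a short motif that contains the core letters bound by SMAD proteins. SEMA3C lies at chr4:18699578-18699877 on the minus strand with 3 matches, SEMA3D at chr4:23460922-23461221 on the minus strand with 1, and SEMA6D at chr3:132337106-132337405 on the plus strand with 1. ROBO1 has 2 windows on the plus strand, at chr11:24067706-24068005 with 0 matches and at chr11:24714445-24714744 with 1.
SEMA3C: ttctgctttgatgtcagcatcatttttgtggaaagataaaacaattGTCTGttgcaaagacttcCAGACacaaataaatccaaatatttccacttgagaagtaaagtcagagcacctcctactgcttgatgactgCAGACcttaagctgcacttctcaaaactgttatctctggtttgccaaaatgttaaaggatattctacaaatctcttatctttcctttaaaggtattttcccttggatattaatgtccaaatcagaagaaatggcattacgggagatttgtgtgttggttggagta
SEMA3D: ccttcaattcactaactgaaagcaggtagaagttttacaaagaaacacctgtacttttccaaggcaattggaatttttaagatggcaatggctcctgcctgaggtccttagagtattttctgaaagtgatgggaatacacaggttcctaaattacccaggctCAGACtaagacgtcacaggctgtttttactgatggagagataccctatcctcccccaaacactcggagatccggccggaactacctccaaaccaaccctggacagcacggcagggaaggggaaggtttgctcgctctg
SEMA6D: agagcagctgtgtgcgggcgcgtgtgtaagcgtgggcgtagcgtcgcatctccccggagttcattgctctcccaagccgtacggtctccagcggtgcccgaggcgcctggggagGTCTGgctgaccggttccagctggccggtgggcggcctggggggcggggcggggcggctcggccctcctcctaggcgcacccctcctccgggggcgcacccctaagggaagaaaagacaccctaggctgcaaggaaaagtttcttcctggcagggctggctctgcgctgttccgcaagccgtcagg
ROBO1, first window: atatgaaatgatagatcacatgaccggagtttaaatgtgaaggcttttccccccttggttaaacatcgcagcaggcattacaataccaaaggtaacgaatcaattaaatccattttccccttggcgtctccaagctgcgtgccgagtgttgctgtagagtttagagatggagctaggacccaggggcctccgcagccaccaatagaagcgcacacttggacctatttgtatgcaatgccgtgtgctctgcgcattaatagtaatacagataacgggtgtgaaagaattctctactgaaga
ROBO1, second window: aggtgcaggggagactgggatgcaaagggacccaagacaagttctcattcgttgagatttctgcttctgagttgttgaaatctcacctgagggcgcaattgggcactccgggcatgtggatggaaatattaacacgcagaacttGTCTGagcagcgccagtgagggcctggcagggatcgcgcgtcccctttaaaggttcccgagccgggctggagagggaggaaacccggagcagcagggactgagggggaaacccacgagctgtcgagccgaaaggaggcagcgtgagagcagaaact
The motif was found in 16755 of 33469 rat promoters of this length, or 50.1%. Among the axon guidance genes 52 of 67 symbols matched, and 28 of their 53 promoters held it, or 52.8%. Of the promoters of the 20 genes that were basal-high throughout, 8 of 15 held it, or 53.3%. A match is a description of letters in the window and not of a bound site.

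In vehicle-treated rats more axon guidance genes were higher in basal than in luminal cells. In young ACI bulk libraries 38 of 59 tested genes differed between basal and luminal cells, 30 higher in basal and 8 higher in luminal (limma, adjusted p of 0.05 or less). Of all genes tested there, 34.1% differed, 19.1% being higher in basal and 15.0% in luminal cells. The median log2 difference was 1.29 over the axon guidance genes and 0.14 over all genes. In SD bulk libraries 31 of 59 differed, 23 higher in basal and 8 in luminal, against 40.9% of all genes, with 21.8% basal-high and 19.2% luminal-high. There the medians were 0.97 and 0.02. The ACI count was 39 without the basal library of rat LD2LR, and also 39 without its luminal library. Shares of all genes called in these fits are not given. Throughout the bulk comparisons, fewer cells of a type and less RNA per cell cannot be told apart.

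The sorted single cells, summed per rat and tested with edgeR at an adjusted p of 0.1 or less, gave the same lean. In ACI rats 38 of 58 tested genes were higher in basal and 12 in luminal cells, where 65.2% of all genes differed, 33.3% in favour of basal and 31.9% in favour of luminal. In SD rats 35 of 58 were higher in basal and 10 in luminal cells, against 41.6% of all genes, 19.4% basal-high and 22.2% luminal-high. Of 49 genes tested in all 4 data sets, 20 were basal-high in each (40.8%), against 11.4% of the 11349 genes tested in all 4. These were EFNA5, EFNB1, EFNB3, EPHA4, EPHB2, NRP2, PLXND1, ROBO1, ROBO2, SEMA3A, SEMA3B, SEMA3C, SEMA3D, SEMA3G, SEMA4C, SEMA5A, SEMA6D, SLIT2, SLIT3 and UNC5B. Only NTN1 and UNC5CL were luminal-high in each of the 4 (4.08%, against 9.15% of all genes), and 3 genes (EFNA4, NRP1 and NTN4) were called in both directions. SD basal bulk libraries held fibroblast-list sums of 371226 to 594394, above their basal-list sums of 123561 to 155231. SD vehicle single-cell basal sorts also held fibroblast-list transcripts, as given below. The part of other cells in the basal-high calls was not tested.

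**Figure D1:**
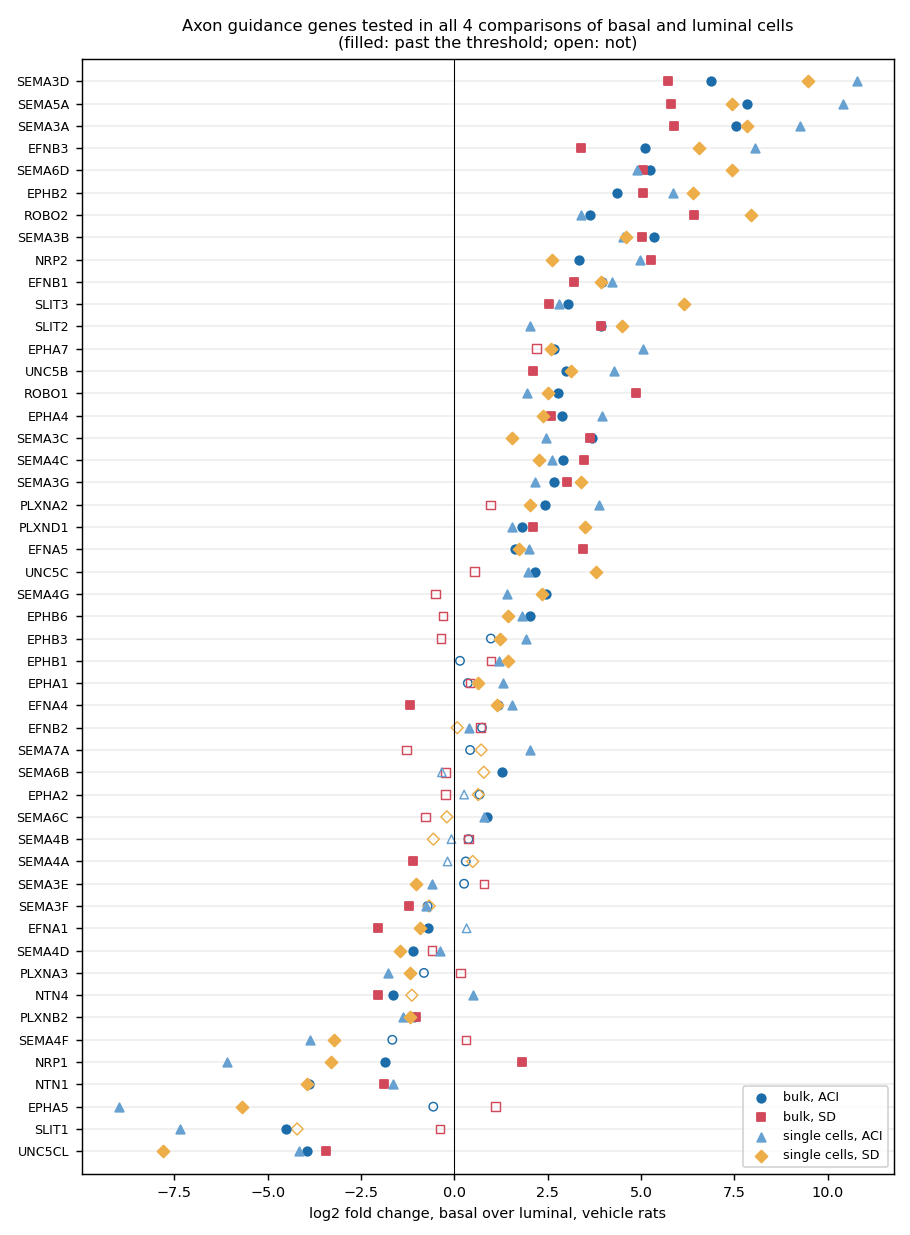
Log2 difference between basal and luminal cells of vehicle-treated rats for the axon guidance genes (rows) in the 4 data sets, positive values being higher in basal cells. SEMA5A stands at 7.83 in ACI bulk libraries and NTN1 at -3.89.

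Among the ligands, SEMA5A, a membrane semaphorin with thrombospondin repeats, had one of the widest gaps. Over 9 young ACI vehicle rats its normalised reads ran from 731 through a median of 2637 to 4773 in basal cells, and from 3.32 through 10.9 to 17.3 in luminal cells. Every basal library was above every luminal one (log2 difference 7.83, SE 0.43, limma adjusted p = 9.1e-15). In the 4 SD vehicle rats C6N, C6R, C7N and C7R, SEMA5A was at 1278, 1136, 1533 and 2189 in basal cells and at 136, 7.14, 33.3 and 12.1 in luminal cells. The highest luminal value belonged to rat C6N, whose luminal library also held the high basal-list sum, and its part in that value was not tested. In single cells SEMA5A was at 3.96, 3.90 and 4.95 UMIs per 10000 in basal cells of rats ACI7, ACI8 and ACI9, and at 0.0068 or less in their luminal cells.

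Of the 7 secreted class 3 semaphorins, known as repellents that act through neuropilin and plexin complexes, 5 were basal-high in all 4 data sets. The other 2 were basal-high in none, SEMA3E being luminal-high in both single-cell sets and SEMA3F in SD bulk libraries and ACI single cells. SEMA3A ranged from 63.4 through a median of 429 to 694 normalised reads in ACI basal cells and from 0 through 0 to 9.85 in luminal cells (log2 difference 7.56, SE 0.52, limma adjusted p = 8.4e-13). SEMA3B ranged from 745 through 1840 to 4113 in basal and from 21.2 through 46.4 to 97.8 in luminal cells (5.36, SE 0.36). SEMA3C ranged from 1982 through 5319 to 7814 in basal and from 214 through 357 to 635 in luminal cells (3.68, SE 0.40). None of these 3 overlapped between the fractions. SEMA3D ran from 51.9 through 394 to 680 in ACI basal cells and from 0 through 0.762 to 9.85 in luminal cells (6.88, SE 0.56). In sorted ACI single cells SEMA3D was at 0.150 to 0.216 UMIs per 10000 in basal cells, and no SEMA3D molecule was counted in the luminal cells of any of the 3 vehicle rats. SEMA6D, a membrane semaphorin that binds plexin A receptors, was at 506 through 986 to 2085 in ACI basal and 4.76 through 29.4 to 54.8 in luminal cells (5.24, SE 0.33). In SD rats SEMA6D was at 705, 530, 622 and 841 in basal and 29.7, 21.4, 4.16 and 44.5 in luminal cells.

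The co-receptors of these ligands were split between the layers. NRP2 was basal-high in all 4 data sets, at 99.2 through 567 to 684 normalised reads in ACI basal cells and 2.49 through 44.5 to 143 in luminal cells (3.33, SE 0.55), with some overlap. NRP1, which also binds VEGF, differed in direction between data sets. In ACI bulk libraries it was at 32.2 through 107.6 to 492 in basal and 82.5 through 629 to 993 in luminal cells (-1.85, SE 0.46, limma adjusted p = 0.0019), and it was lower in basal than in luminal cells in 9 of 9 rats. In SD bulk libraries NRP1 was at 522.5, 265, 443 and 419 in basal and 71.9, 136, 111 and 150 in luminal cells, higher in basal in 4 of 4 rats (1.82, SE 0.63, adjusted p = 0.020). In single cells NRP1 was luminal-high in both strains. It was at 0.0354, 0.00572 and 0.00800 UMIs per 10000 in ACI basal cells against 1.52, 1.53 and 1.08 in luminal cells, and at 0.0939, 0.108 and 0.00599 against 0.661, 0.428 and 0.679 in SD cells. The SD basal bulk libraries carried the high fibroblast-list sum given above, and NRP1 was at 0.836 to 0.945 UMIs per 10000 in fibroblast-like cells of the whole gland. The part of fibroblast transcripts in the SD bulk NRP1 value was not tested.

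Of the Slits and Robos, SLIT2, SLIT3, ROBO1 and ROBO2 were basal-high in all 4 data sets. SLIT2 was at 25.99 through 72.6 to 186 normalised reads in ACI basal and 0 through 8.62 to 16.5 in luminal cells (3.94, SE 0.57). ROBO1 was at 99.2 through 375 to 588 and 7.93 through 61.96 to 85.4 (2.77, SE 0.52), and neither gene overlapped between fractions. ROBO2 was at 285, 240, 224 and 388 in SD basal cells and 11.4, 0, 1.39 and 2.69 in luminal cells (6.43, SE 0.90). SLIT1 went the other way in ACI rats, at 0 through 0 to 23.1 in basal and 7.93 upward with a median of 74.6 in luminal cells (-4.52, SE 0.71), and in SD bulk libraries it was at 5.73 to 17.1 and 5.71 to 19.4 without a call.

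NTN1, the secreted netrin-1, was the clearest luminal ligand. It was at 14.6 upward with a median of 44.8 normalised reads in ACI basal and 249 through 687 to 1176 in luminal cells, without overlap (-3.89, SE 0.29, limma adjusted p = 6.9e-12). In SD rats it was at 47.1, 57.3, 73.2 and 122 in basal and 247, 248, 204 and 381 in luminal cells (-1.89, SE 0.41). NTN4, a netrin that binds laminin, was also luminal-high in both bulk sets (-1.65 and -2.04) but was higher in basal cells of the ACI single-cell set (0.50, SE 0.28, edgeR adjusted p = 0.083). The netrin receptor UNC5B was basal-high, at 172 through 1857 to 2636 in ACI basal and 20.6 through 188 to 256 in luminal cells, with some overlap (2.99, SE 0.59). UNC5CL was at 0 through 1.47 to 9.64 in ACI basal and 13.2 through 43.7 to 88.2 in luminal cells (-3.94, SE 0.53).

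The ephrins were also divided, whereas no Eph receptor was called luminal-high in bulk libraries and only EPHA5 in single cells, in both strains. EFNB1, a transmembrane ephrin, was at 799 through 2280 to 3471 normalised reads in ACI basal and 25.4 through 145 to 232 in luminal cells (3.97, SE 0.37), without overlap. EFNB3 was at 22.8 through 41.9 to 77.4 in basal cells and 0 through 0 to 1.57 in luminal cells (5.11, SE 0.42), and EPHB2, a receptor for B-type ephrins, was at 12.5 through 99.1 to 154 and 0 through 3.01 to 13.6 (4.35, SE 0.61). EFNA1, a lipid-anchored ephrin, was higher in luminal cells of both strains in bulk (-0.71, SE 0.19, and -2.05, SE 0.22). Its main partner EPHA2 did not pass in the main fits, which were not paired by rat, in any of the 4 sets. It stood at 2281 through 8639 to 12720 in ACI basal and 1325 through 5105 to 6628 in luminal cells. In bulk libraries EPHA2 was higher in basal cells in 8 of 9 ACI rats and in 1 of 4 SD rats. The plexin PLXNB2, a receptor for class 4 semaphorins, was luminal-high in both single-cell sets (-1.36, SE 0.10, and -1.199, SE 0.24) and in SD bulk libraries (-1.04, SE 0.26), and had an adjusted p of 0.13 in ACI bulk libraries.

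**Figure D2:**
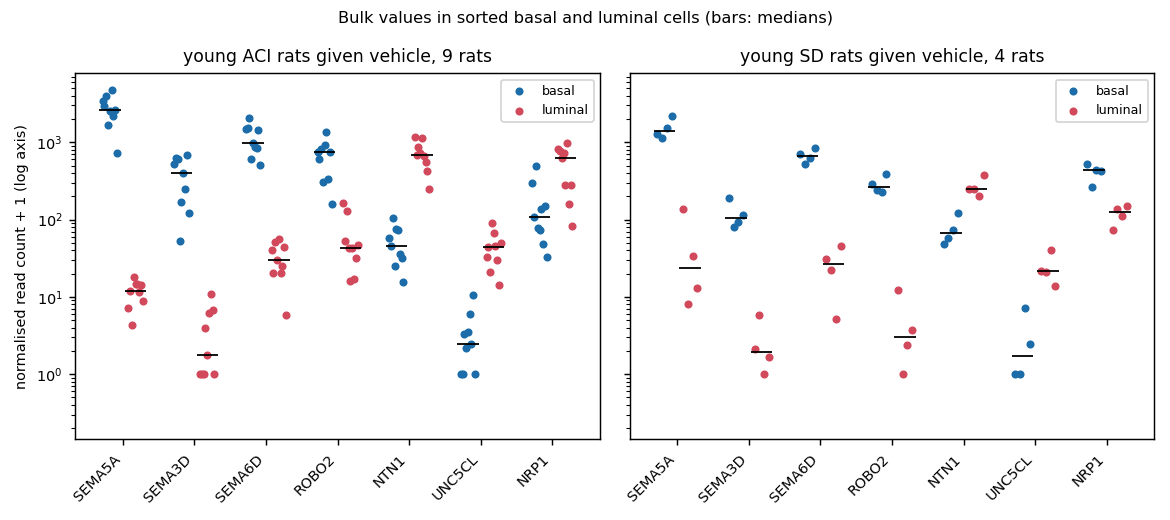
Normalised reads with 1 added (log axis) of 7 axon guidance genes in each vehicle-treated young rat, basal and luminal cells side by side, 9 ACI and 4 SD rats. SEMA5A basal values lie between 731 and 4773 in ACI rats, above all their luminal values, and NRP1 changes sides between the strains.

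Genes that work with these ligands and receptors were followed in 2 lists. Of 19 tested co-receptors and other ligands, 11 were basal-high and 2 luminal-high in ACI bulk libraries, among them DCC and RGMA on the basal side, and 9 and 1 in SD. Of 41 tested cytoplasmic effectors, such as the ROCK kinases and the SRGAP and MICAL proteins, 14 were basal-high and 11 luminal-high in ACI, and 14 and 5 in SD. The shares of all genes were 19.1% basal-high and 15.0% luminal-high in ACI and 21.8% and 19.2% in SD, and nothing particular to either list was tested.

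Several of these genes had their highest whole-gland levels outside the epithelium. Cells of 9 SD rats were clustered without the axon guidance genes and classes were named from marker lists, with the class assignments reviewed by hand after the clusters were seen. Levels are UMIs per 10000 in the 3 vehicle rats, given as the lowest, median and highest rat, and are a description of a 5′ assay that counts 1 end of a molecule. Schwann-like cells had the highest SEMA3B, at 8.23, 8.41 and 10.6, next to 0.263, 0.351 and 0.592 in fibroblast-like and 0.238, 0.268 and 0.311 in basal-like cells. The ranges of these last classes overlapped. SEMA3C was highest by the median in fibroblast-like cells at 2.75, 2.87 and 3.52, followed by Schwann-like cells at 1.33, 2.47 and 3.72 and basal-like cells at 1.83, 2.10 and 2.32. The Schwann-like range overlapped with both others. SLIT3 was highest in smooth muscle-like cells at 1.92, 2.15 and 2.86, above fibroblast-like cells at 0.713, 0.920 and 1.16. Thus a gene that was basal-high among the sorted fractions could be more abundant still in a stromal class.

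SEMA5A in whole-gland vehicle cells was at 0.393, 0.834 and 0.843 in Schwann-like, 0.587, 0.646 and 0.826 in pericyte-like and 0.416, 0.633 and 0.814 in basal-like cells, and these 3 classes overlapped. It stood at 0.014 or less in both luminal classes.

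Levels in the 2 endothelial classes were as follows. SEMA7A, a lipid-anchored semaphorin that binds integrins and PLXNC1, was at 1.79, 3.19 and 3.36 in blood endothelium-like cells, above dendritic-like cells at 0.981 to 1.69. NRP1 was also highest in blood endothelium-like cells, at 1.49, 1.78 and 2.67. Lymphatic endothelium-like cells had SEMA3D at 2.37, 3.05 and 4.24, EFNA1 at 2.13, 2.43 and 2.91, and NRP2, a co-receptor for VEGF-C, at 1.55, 2.12 and 2.27. NRP2 overlapped with macrophage-like cells, at 1.18, 1.70 and 3.39, and EFNA1 with mature luminal-like cells. The lymphatic class held 404 vehicle cells.

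In immune classes, dendritic-like cells had SEMA4A, a ligand of immune cells, at 1.77, 2.05 and 2.38, and macrophage-like cells at 0.411, 1.10 and 1.44. SEMA4D, which acts through plexin B1 and CD72, was highest in B-like cells at 0.394, 0.614 and 0.712. PLXND1, the receptor of SEMA3E, was at 0.628, 1.93 and 2.30 in dendritic-like and 0.789, 1.24 and 1.35 in macrophage-like cells, which overlapped. In the epithelium EPHA2 was highest in basal-like cells at 1.62, 1.83 and 1.98, and EFNA1 stood at 1.41, 2.00 and 2.06 in luminal progenitor-like and 1.13, 2.14 and 2.31 in mature luminal-like cells. NTN1 was at 0.0423 to 0.0661 in whole-gland luminal progenitor-like cells, and at 1.09 to 1.27 in the same class of sorted ACI cells, which were read from the 3′ end. Those values come from different chemistries and strains and were not compared.

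**Figure D3:**
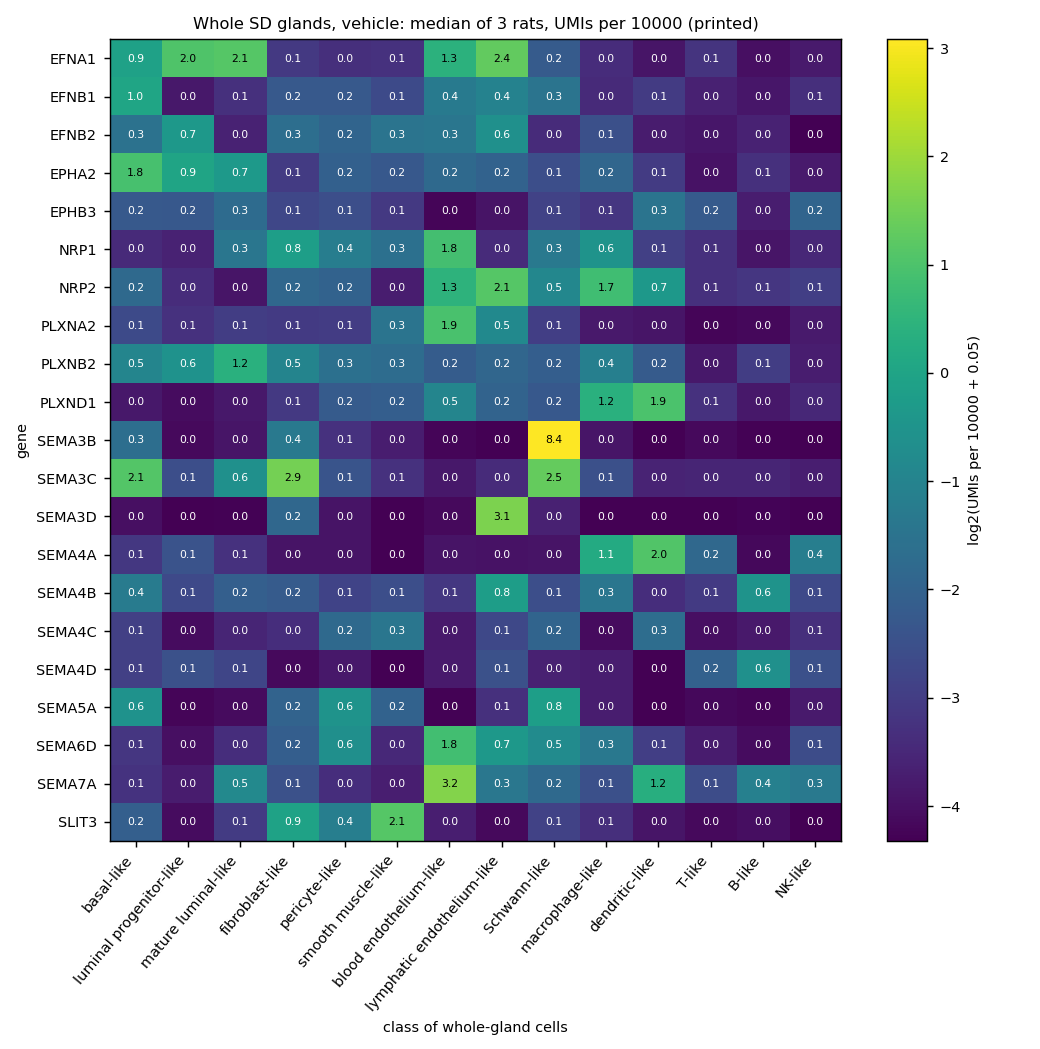
Median UMIs per 10000 over 3 vehicle rats for 21 axon guidance genes (rows) in 14 cell classes of the SD whole gland (columns), coloured on a log2 scale. SEMA3B in Schwann-like cells (8.41), SEMA7A in blood endothelium-like cells (3.19) and SEMA3D in lymphatic endothelium-like cells (3.05) stand out.

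TGFBRi was next compared with vehicle. In adult virgin ACI basal cells 12 of 60 tested axon guidance genes fell and none rose (limma, adjusted p of 0.05 or less), among all genes of which 8.73% were called and 6.23% fell. The median log2 difference was -1.08 over the axon guidance genes and -0.25 over all genes. With edgeR on the recovered reads, whose scaling put the median of all genes at -0.10, 8 axon guidance genes fell, and their median was -0.75. The count was 3 when only the 2 groups compared entered the fit, 7, 5 and 6 without vehicle rats N1R, N2N and N2R, and 22 without TGFBRi rat N1N. The shares of all genes called in these last 4 fits were 5.32%, 3.76%, 4.65% and 11.5%. The shares with edgeR and with only the 2 groups are not given, so those counts are not set against all genes.

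Of 7 tested plexins 3 were called lower, and PLXNA3 and PLXNB2 among them did not overlap between groups. PLXNA3, a plexin that pairs with neuropilins, was at 241, 341, 195 and 153 normalised reads in vehicle rats N1N, N1R, N2N and N2R and at 0, 21.9, 5.78 and 0 in the 4 TGFBRi rats of the same labels (log2 difference -5.99, SE 0.82, limma adjusted p = 8.8e-04). PLXNB2 was at 5438, 5577, 6425 and 5689 in vehicle and 2565, 1708, 1197 and 1374 in TGFBRi rats (-1.81, SE 0.24, adjusted p = 7.0e-04). All vehicle values of both genes were above all treated ones, and both genes and SEMA6D were called in 14 of 14 alternative fits.

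Of 20 tested semaphorins 4 were called lower. SEMA3C, SEMA3D, SEMA5A and SEMA6D were the 4, and SEMA3A, SEMA3B, SEMA3G and SEMA4C, which were likewise basal-high in all 4 data sets, were not called. SEMA6D, whose promoter is shown above, was at 1428, 2236, 2496 and 2482 in vehicle and 1056, 527, 407 and 486 in TGFBRi rats (-1.87, SE 0.29, limma adjusted p = 0.0019). SEMA3C was at 2478, 2883, 3283 and 2314 in vehicle and 981, 1322, 787 and 2175 in TGFBRi rats (-1.15, SE 0.25, adjusted p = 0.011). TGFBRi rat N2R, with the 2175, also had the highest fibroblast-list sum of its group, 118149 normalised reads against 10260 to 18755 in the other 3, and its part in that value was not tested. SEMA3D was at 87.3, 24.2, 30.5 and 2.79 in vehicle rats and listed at 0 in all 4 TGFBRi rats (limma adjusted p = 0.0070), and it was called in 13 of 14 alternatives, as was SEMA3C. Vehicle rat N1N, with the 87.3, also had the highest blood endothelium sum, 11997 normalised reads against 864 to 2132 in the other 3, and the highest fibroblast sum of the vehicle rats, 80539 against 27201 to 40068, and the part of these in its SEMA3D value was not tested. SEMA5A was at 3748, 5145, 6629 and 5822 in vehicle and 3670, 3401, 2450 and 1159 in TGFBRi rats (-1.10, SE 0.31, adjusted p = 0.037), called in 6 of 14 alternatives. ROBO1, the Slit receptor, was at 402, 331, 335 and 365 and at 174, 197, 189 and 77.5 (-1.25, SE 0.33, adjusted p = 0.028), called in 7 of 14.

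The other calls were EFNA5, EPHA3, EPHB6, NRP1 and PLXNB3, whose groups overlapped. NRP1, for example, was at 880, 104.2, 344 and 213 in vehicle and 160, 6.91, 0 and 74.4 in TGFBRi rats, the 880 being that of rat N1N. Among the pathway genes 3 of 19 co-receptors and ligands fell (DSCAM, L1CAM and MET, the HGF receptor) and 6 of 41 effectors fell, and none rose. The virgin TGFBRi libraries listed 10151 to 11434 genes above 0 against 12123 to 12561 in vehicle. The blood endothelium list stood at 453 to 1004 normalised reads against 864 to 11997, with 2 of 8 genes called lower, and 2 of 9 fibroblast genes, 1 of 7 pericyte genes and 2 of 7 Schwann genes were lower, while the basal list had 1 of 8 genes higher and 1 lower. The basal list summed to 288401, 547856, 270033 and 248269 normalised reads in the 4 TGFBRi libraries and 273941, 514401, 555963 and 512616 in the 4 vehicle libraries, so that 3 treated libraries stood with the lowest vehicle library and 1 with the other vehicle libraries. The part of these in the falls was not tested.

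In parous rats of the same age neither plexin was called. PLXNA3 was at 173, 220, 81.95 and 117 in parous vehicle and 123, 159, 209 and 170 in parous TGFBRi basal cells (0.23, SE 0.82). PLXNB2 was at 6573, 3916, 4445 and 4871 and at 4196, 3601, 5216 and 6440 (-0.03, SE 0.24), and both groups overlapped. The effects in virgin and parous rats differed for PLXNA3 (difference of log2 effects -6.22, SE 1.17, limma adjusted p = 0.021) and PLXNB2 (-1.78, SE 0.34, adjusted p = 0.025), where 1.04% of all genes were called. For SEMA6D the difference was -1.64 (SE 0.42) with an adjusted p of 0.067, and for SEMA3C -0.99 (SE 0.36) with 0.18. PLXNB3 was the only axon guidance gene called in parous rats, listed at 0 in all 4 vehicle and at 167, 57.2, 72.3 and 50.6 in TGFBRi rats (limma adjusted p = 0.020), in a comparison with 0.00744% of all genes called. In virgin rats PLXNB3 was at 26.4, 21.7, 43.2 and 0.928 in vehicle and 0, 0, 1.44 and 0 in TGFBRi rats, and the difference between the effects was also called (adjusted p = 0.0031). Over 20 alternatives this difference was called in 20 for PLXNB3, in 16 for PLXNB2 and in 14 for PLXNA3. Of the axon guidance genes 3 had a called difference, against 10 and 5 without virgin TGFBRi rats N1N and N2R, where 3.87% and 1.19% of all genes were called, and 1 without virgin vehicle rat N2N, parous vehicle rat P2N, or parous TGFBRi rat P2N or P2R. In these last 4 fits 0.142%, 0.209%, 0.194% and 0.231% of all genes were called. The parous PLXNB3 call was lost with edgeR, without vehicle rat P1N, P1R or P2R, and without TGFBRi rat P1N or P2N. In each of these leave-out fits no gene at all was called. PLXNB3 and SEMA3D, both low, are described because they were singled out after their values were seen.

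**Figure D4:**
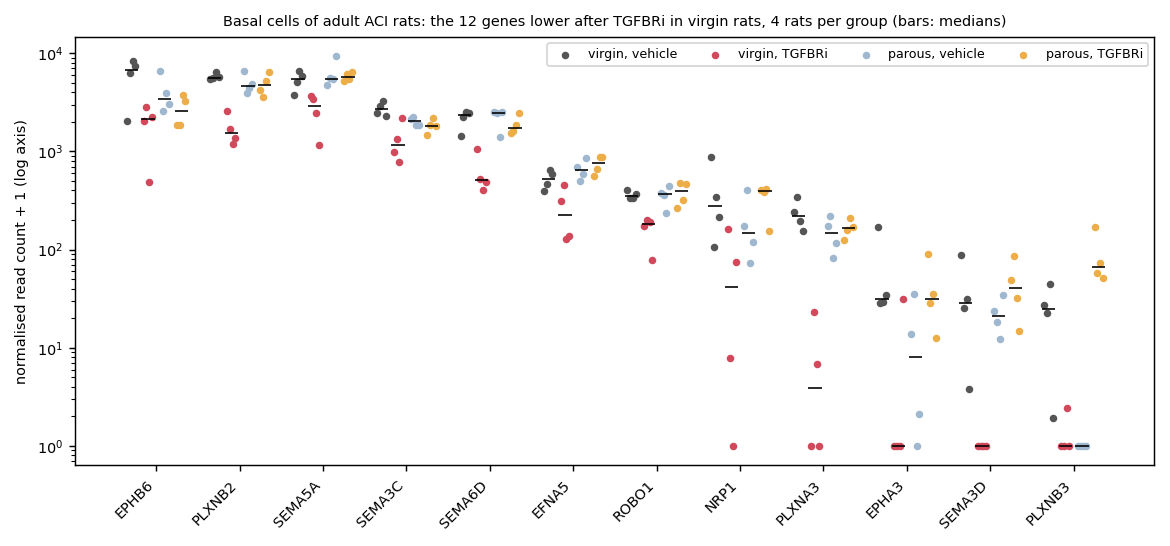
Normalised reads (log axis, with a value of 1 added) of the 12 genes called lower in virgin rats, in basal cells of adult virgin and parous ACI rats, 4 rats per group. Virgin TGFBRi rats lie below virgin vehicle rats for PLXNA3, with 0 to 21.9 against 153 to 341. The parous groups overlap for PLXNA3 and not for PLXNB3.

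Elsewhere in the bulk libraries few axon guidance genes were called, and several of those named here were low or chosen after their values were seen. In young ACI basal cells at day 0, UNC5A, a netrin receptor chosen in that way, was listed at 0 in 3 vehicle rats and at 28.2, 6.38 and 13.2 in TGFBRi rats (limma adjusted p = 0.045), where 3.34% of all genes were called. These were 14, 2 and 13 reads. The treated libraries LD7L, LD7R and LD10R held 6562769, 4194912 and 15136358 reads against 12382292 to 18781674 in vehicle, and listed 14020 to 15297 genes above 0 against 12612 to 14603, and the part of this in the call was not tested. SEMA5A did not pass there, at 3447, 2931 and 3961 in vehicle and 3103, 2075 and 3216 in TGFBRi rats. The UNC5A call was lost without vehicle rat LD3L or LD3R and without TGFBRi rat LD7L or LD7R, and 4 axon guidance genes were called without LD10R, where 17.6% of all genes were.

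In CD45+ cells at day 0, with 2.85% of all genes called, SEMA5A was at 103.6, 300 and 50.95 in vehicle and 1.71, 0 and 34.2 in TGFBRi rats (-4.69, SE 1.13, limma adjusted p = 0.037). SEMA3B was at 885, 1115 and 842 against 138, 338 and 153 (-2.28, SE 0.59, adjusted p = 0.050), and EPHA5, a low receptor gene chosen after its values were seen, was at 14.8, 66.6 and 4.34 against 0 in 3 rats. In the same libraries 6 of 8 basal markers fell, their sum being 3492 to 12765 in vehicle and 113 to 204 in TGFBRi rats, and 4 of 9 fibroblast genes fell, from 369090 to 741620 down to 23981 to 150660. The part of these cells in the falls was not tested. The count of 3 became 0 without vehicle replicate 2 or TGFBRi replicate 1, where 0.59% and 0.529% of all genes were called. It became 1 without TGFBRi replicate 2 or 3, where 1.68% and 1.26% were. With edgeR, and with only the groups compared, none of the 3 was called.

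In luminal cells of the NMU experiment SEMA4B, a membrane semaphorin, was at 424, 583 and 1521 in vehicle and 2893, 2633 and 3386 in tumor-free TGFBRi rats (2.03, SE 0.45, limma adjusted p = 0.040), with 0.948% of all genes called. Tumor-bearing TGFBRi rats, matched to vehicle in tumor status, were at 2837, 1956 and 1975. No axon guidance gene was called between them and vehicle, where 0.212% of all genes were called. All vehicle rats bore tumors, so TGFBRi and tumor status cannot be told apart in the SEMA4B call. The 2 lowest vehicle values came from the libraries of rats C2N and C2R, with 6952044 and 14808084 reads and size factors (the divisors of the normalisation) of 0.25 and 0.46, against 20003972 to 21173594 reads and 0.99 to 1.16 in the tumor-free libraries and 21445893 reads and 1.16 in vehicle rat C5R. The part of these library differences was not tested. The SEMA4B call was lost without any one of the vehicle libraries 1 or 2 or of the tumor-free libraries, and without vehicle library 3 there were 12 calls in tumor-free and 9 in tumor-bearing rats, where 14.3% and 10.8% of all genes were called.

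In the estrogen experiment, vehicle rats with the pellet and tumors were set against those without, and 1.48% of all genes differed in luminal cells. SEMA4A was at 543, 706, 233 and 919 without E2 and 1390, 3222, 6141 and 2664 with E2 (2.45, SE 0.45, limma adjusted p = 0.0081). SEMA3B was at 10.9, 30.3, 39.1 and 45 without and 116, 229, 123 and 193 with E2 (2.47, SE 0.59, adjusted p = 0.041). The groups did not overlap, SEMA4A was called in 13 of 13 alternatives, and SEMA3B in 4 of 13. SEMA3B was lost on leaving out any of the 4 E2 rats or replicate 1, 2 or 3 without E2.

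In the other 40 of 47 bulk comparisons of treatment, time, parity or estrogen no axon guidance gene passed limma's threshold, while 0 to 14 had an unadjusted p under 0.05. In 22 of them no gene at all was called (0%). The remaining shares of all genes were 0.00639% in young ACI basal cells at day 7 and for the difference between days 0 and 14, and 0.0384% between days 14 and 0 in vehicle basal cells. They were 1.31% in NMU basal cells of tumor-bearing rats, 1.01% in young ACI luminal cells at day 0, 0.00659% for the luminal difference between days 0 and 14, and 0.389% between days 14 and 0 in vehicle luminal cells. They were 0.0281% in adult parous luminal cells and 0.212% in NMU luminal cells of tumor-bearing rats. In CD45+ cells they were 0.0135% and 0.19% for the differences of day 0 from days 7 and 14, 0.022% in adult virgin rats and 0.015% in tumor-bearing NMU rats. In the estrogen experiment they were 0.0147% in luminal cells without E2 and also in tumor-free rats with E2, 0.00736% in tumor-bearing rats with E2, and in CD45+ cells 0.0223% in tumor-bearing rats and 0.282% with against without E2. In these 40 comparisons edgeR called at most 1 axon guidance gene, in 1 comparison, and DESeq2 called up to 5, in 16 comparisons. The shares of all genes that these tools called are not given, so their counts are not set against all genes. In young ACI luminal cells at day 0, 9 genes were called without TGFBRi replicate 3, where 15.6% of all genes were. In tumor-bearing E2 rats, leaving out 1 of the 2 TGFBRi rats moved the calls in luminal and CD45+ cells. Those fits left a group of 1 rat, and their counts are not given.

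The sorted single cells were compared in young rats at the end of dosing, with 3 vehicle and 3 TGFBRi ACI rats and 3 vehicle and 6 TGFBRi SD rats. In ACI basal cells 20 of 52 tested axon guidance genes changed, 5 rising and 15 falling (edgeR, adjusted p of 0.1 or less). Of all genes there 33% changed, 15.5% rising and 17.5% falling. In SD basal cells 18 of 53 fell and none rose, against 24.7% of all genes, 12.2% falling and 12.5% rising. In ACI luminal cells 2 of 53 rose and 8 fell, against 25% of all genes, 13.4% rising and 11.7% falling. In SD luminal cells 1 of 53 rose and 13 fell, against 31.8% of all genes, 17.2% rising and 14.6% falling. Besides EPHA2 and EFNA1, described below, EFNA4, EFNB1, NRP2 and SEMA3D were each called higher in 1 of these sorted comparisons. EFNA4 was also called lower in 1, and SEMA3D, which fell in adult virgin bulk basal cells, in none.

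Single rats decided several of these counts. In SD basal cells 18 became 1 without vehicle rat SD3, 3 without SD1 and 9 without TGFBRi rat SD12, where the genes called in all numbered 153, 367 and 1976 in place of 3608. In SD luminal cells 14 became 0 without vehicle rat SD1 and 4 without SD2 or SD3, where 3, 1432 and 1532 genes were called in place of 4654. In ACI luminal cells 10 became 5 without vehicle rat ACI7 or TGFBRi rat ACI15 and 6 without ACI12, where 1566, 2303 and 2457 genes were called in place of 3456.

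Between the basal sets of the 2 strains, 12 of the 51 genes tested in both were called lower after TGFBRi in both (23.5%), against 7.72% of all genes tested in both, with the SD calls resting on single rats as given above, and none was called higher in both, against 6.42%. The 12 were EPHA7, NTN1, NTN4, PLXNA4, PLXNB1, SEMA3E, SEMA4D, SEMA4G, SEMA5A, SEMA6A, SEMA7A and SLIT2, and no axon guidance gene was called in opposite directions, against 0.277% of all genes. SEMA5A was at 3.96, 3.90 and 4.95 UMIs per 10000 in vehicle ACI basal cells and 2.37, 3.02 and 2.57 after TGFBRi (-0.46, SE 0.13, edgeR adjusted p = 0.013). In SD basal cells SEMA5A was at 3.13, 1.96 and 3.96 in vehicle and 0.805, 0.923 and 1.70 as lowest, median and highest of the 6 TGFBRi rats (-1.13, SE 0.30, adjusted p = 0.025). No treated rat reached the lowest vehicle rat in either strain, although the SD call was lost without vehicle rat SD1 or SD3. The ACI basal-like cells of the groups lay largely in different clusters, 34.7% and 42.2% of vehicle cells being in clusters 3 and 4 and 27.7% and 46.1% of treated cells in clusters 0 and 2, which held 0.475% and 3.05% of vehicle cells. The part of this in the ACI changes was not tested. NTN4 fell by 1.65 (SE 0.31) in ACI and by 1.68 (SE 0.61) in SD basal cells on the log2 scale, SLIT2 by 0.57 (SE 0.28) and 1.25 (SE 0.31), and SEMA4D by 1.14 (SE 0.22) and 1.44 (SE 0.51).

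SEMA6D was at 0.852, 0.671 and 0.738 in SD vehicle basal cells and 0.176, 0.263 and 0.309 as lowest, median and highest in treated ones (-1.22, SE 0.20, edgeR adjusted p = 0.0088), and it was called in 12 of 12 alternatives. In ACI basal cells SEMA6D was at 0.741, 0.817 and 0.949 against 0.717, 0.907 and 0.759, and was not called. The basal marker list stood at 141 to 147 UMIs per 10000 in ACI vehicle and 124 to 133 in treated basal sorts. In the basal-like cells of the SD sorted data it stood at 114.5 to 131.7 in vehicle and 120.1 to 183.2 in treated rats. In the SD sorted data the vehicle basal cells held a fibroblast-list sum of 2.817 to 83.79, against 1.886 to 24.17 in treated ones. This sum is over whole sorts, as were the tests. Cells of unnamed clusters, among them a cluster of 570 led by endothelial genes such as PLVAP and EMCN, numbered 73 of 3239 in the vehicle and 1012 of 12743 in the treated SD basal sorts, and 291 of 563 in treated rat SD13. Without rat SD13 the count of called axon guidance genes was 17, and the share of all genes called in that fit is not given. The blood endothelium list stood at 0.1018 to 0.3343 in vehicle and 0.0642 to 0.7469 in treated sorts of the SD sorted data. Within the basal-like cells of the SD sorted data the fibroblast-list sum was at most 0.256. There SEMA5A was at 2.17 to 4.00 in vehicle and 0.843 to 1.77 in treated rats and SEMA6D at 0.719 to 0.852 and 0.138 to 0.374, again without overlap, although cluster 3 held 2814 of 3166 vehicle basal-like cells and cluster 4, with 3491 of 11729, was the largest in treated rats. Cluster 3 has SEMA5A among its leading genes, and its part in the SD fall of SEMA5A was not tested. Within the same basal-like cells NTN4 was at 0.00574 to 0.0605 in vehicle and 0.00275 to 0.00672 in treated rats and overlapped.

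EPHA2 and its ligand EFNA1 went up in ACI basal cells. EPHA2 was at 0.705, 0.712 and 0.448 UMIs per 10000 in vehicle and 1.36, 1.26 and 1.42 in TGFBRi rats (1.33, SE 0.16, edgeR adjusted p = 7.1e-04). EFNA1 was at 0.803, 1.34 and 1.40 as lowest, median and highest in vehicle and 1.66, 1.76 and 2.04 in TGFBRi rats (0.84, SE 0.17, adjusted p = 0.018). Both were also called higher in ACI luminal cells, by 0.64 (SE 0.18) and 0.56 (SE 0.17). In SD basal cells EPHA2 was at 1.35, 0.746 and 1.31 in vehicle and 0.667 to 2.48 in TGFBRi rats, and was not called. The difference between the strains was not tested. Over all single-cell comparisons EPHA2 was called higher in 6 of 17 and lower in 0. EFNA1 was called higher in 3 of 18 and lower in 1. For each gene 2 of the rises were in sorted cells, and its other calls were in whole-gland classes of SD rats.

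In luminal cells NRP1 fell in both strains. It was at 1.52, 1.53 and 1.08 in ACI vehicle and 0.618, 0.478 and 0.524 in TGFBRi luminal cells (-1.08, SE 0.17, edgeR adjusted p = 0.0045), and in SD luminal cells at 0.661, 0.428 and 0.679 in vehicle and 0.0337 to 0.341 in TGFBRi rats (-1.54, SE 0.52, adjusted p = 0.063), a call lost without any 1 of the 3 vehicle rats. NRP1 was most abundant in the mature luminal-like class, at 1.72 to 2.396 in ACI vehicle and 0.7395 to 0.8783 in ACI treated rats. Cluster 6 of the ACI data, which has NRP1 among its 10 leading genes, held 48.4% of vehicle and 13.1% of treated mature luminal-like cells, and its part in the fall was not tested. In the ACI sorted data the mature luminal list went from 63.95 to 84.88 in vehicle to 88.8 to 97.1 in treated ACI luminal cells, and in the SD sorted data it ran from 75.0 to 85.4 and 65.4 to 119. The SD luminal sorts also differed in make-up, with 366 of 6266 vehicle and 4744 of 17518 treated cells in unnamed clusters. Of the treated ones 2138 came from rat SD12 and lay in a cluster led by RSPO1, UBD and CD74, and that rat had 74 luminal progenitor-like cells. Without SD12 the count of called axon guidance genes was 10, and the share of all genes called in that fit is not given. Within the SD mature luminal-like class NRP1 was at 1.607 to 1.63 in vehicle and 0.1043 to 0.8882 in treated rats, and within the luminal progenitor-like class at 0.09458 to 0.1702 and 0 to 0.083, without overlap in either. The largest clusters of these classes differed between the groups too, being 17 in vehicle and 9 in treated mature luminal-like cells and 13 and 11 in luminal progenitor-like cells. Cluster 17 of the SD data also has NRP1 among its 10 leading genes. It held 80.5% of vehicle and 1.09% of treated mature luminal-like cells, and its part in the SD fall of NRP1 was not tested. The part of this make-up in the other luminal falls was not tested.

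SEMA4D (-0.81, SE 0.17, and -1.68, SE 0.46), NTN4, ROBO1, SEMA3E and SLIT2 were also called lower in luminal cells of both strains. With NRP1 these made 6 of the 50 axon guidance genes tested in both (12%), against 6.74% of all genes, and each of the SD calls was lost without vehicle rat SD1.

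In the whole gland, 3 vehicle SD rats were compared with 6 TGFBRi rats class by class. In basal-like cells 28 of 54 tested axon guidance genes changed, 19 rising and 9 falling, where 44.2% of all genes changed, 21.7% rising and 22.5% falling. SEMA3C was at 1.83, 2.32 and 2.10 UMIs per 10000 in vehicle and 0.789, 0.997 and 1.26 as lowest, median and highest in treated rats (-1.01, SE 0.16, edgeR adjusted p = 3.0e-04). EFNB1 (-0.93, SE 0.16), EPHB4, the venous Eph receptor (-0.93, SE 0.19), SEMA4B (-1.53, SE 0.28) and SEMA6C (-1.59, SE 0.22) also fell without overlap. SEMA4G was at 0.0119, 0.0149 and 0.0241 in vehicle and 0.0620 to 0.119 in TGFBRi rats (2.59, SE 0.35, adjusted p = 1.2e-04), and EFNB3 (2.27, SE 0.38) and EFNA2 (2.495, SE 0.50) rose as well.

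SEMA5A rose in this class, from 0.814, 0.633 and 0.416 in vehicle to 1.09, 1.35 and 1.75 as lowest, median and highest (1.14, SE 0.25, edgeR adjusted p = 0.0033), whereas it fell in sorted basal cells of the same strain. Of 52 genes tested in both SD basal sets 10 were called in both. Of these 2 fell in both (SEMA3E and SEMA7A), or 3.85% against 1.7% of all genes, and 8 fell in sorted cells and rose in the whole gland, or 15.4% against 4.01% of all genes. The reverse pattern, higher in sorted cells and lower in the whole gland, held for none of them and for 4.18% of all genes. These 8 were EPHA7, NTN4, PLXNB1, ROBO2, SEMA3A, SEMA4G, SEMA5A and SEMA6D, and the difference between the sets was not tested. In whole-gland basal-like cells the basal list went from 126 to 138 in vehicle to 158 to 220 in treated rats and the smooth muscle list from 78.5 to 119 to 150 to 220. The luminal progenitor list went there from 34.9 to 39.5 down to 23.3 to 27.2 and the mature luminal list from 39.1 to 43.4 down to 24.4 to 28.9. The 2 groups lay largely in different clusters of this class, with 3348 of 4504 vehicle cells in cluster 9 (51.1% to 84.6% per rat) and 4974 of 5427 treated cells in cluster 10 (83.3% to 96.9%). SEMA5A was at 0.355 to 0.851 in vehicle and 0.932 to 1.07 in treated rats within cluster 9, and at 0.55 to 0.767 and 1.16 to 1.78 within cluster 10, without overlap in either. The part of these lists, and of the 5′ against 3′ chemistry, was not tested. The largest cluster also differed between the groups in B-like and macrophage-like cells, and in no other named whole-gland class.

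SEMA7A had the most falls of the axon guidance genes, being called lower in 10 of the 18 single-cell comparisons that tested it and higher in 1. It was singled out after its values were seen, and the share of all genes with as many falls is not given. The whole-gland comparisons used the same 9 rats, so they are not separate observations. In blood endothelium-like cells, where its level was highest, SEMA7A was at 3.19, 3.36 and 1.79 in vehicle and 1.23, 1.61 and 2.13 as lowest, median and highest in TGFBRi rats, with some overlap (-0.9995, SE 0.22, edgeR adjusted p = 0.0034). In mature luminal-like cells it was at 0.368, 0.512 and 0.705 in vehicle and 0.114 to 0.289 in treated rats (-1.44, SE 0.28, adjusted p = 0.0024). It also fell in basal-like, luminal progenitor-like, fibroblast-like, pericyte-like, smooth muscle-like and B-like cells and in both sorted basal sets. In NK-like cells it rose, from 0.342 to 0.363 in vehicle to 0.525 to 0.748 (0.89, SE 0.27, adjusted p = 0.016). In basal-like, luminal progenitor-like, pericyte-like, smooth muscle-like and fibroblast-like cells its vehicle level was 0.134 or less, against up to 3.36 in blood endothelium-like cells of the same libraries. The part of free RNA in those low levels was not tested.

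**Figure D5:**
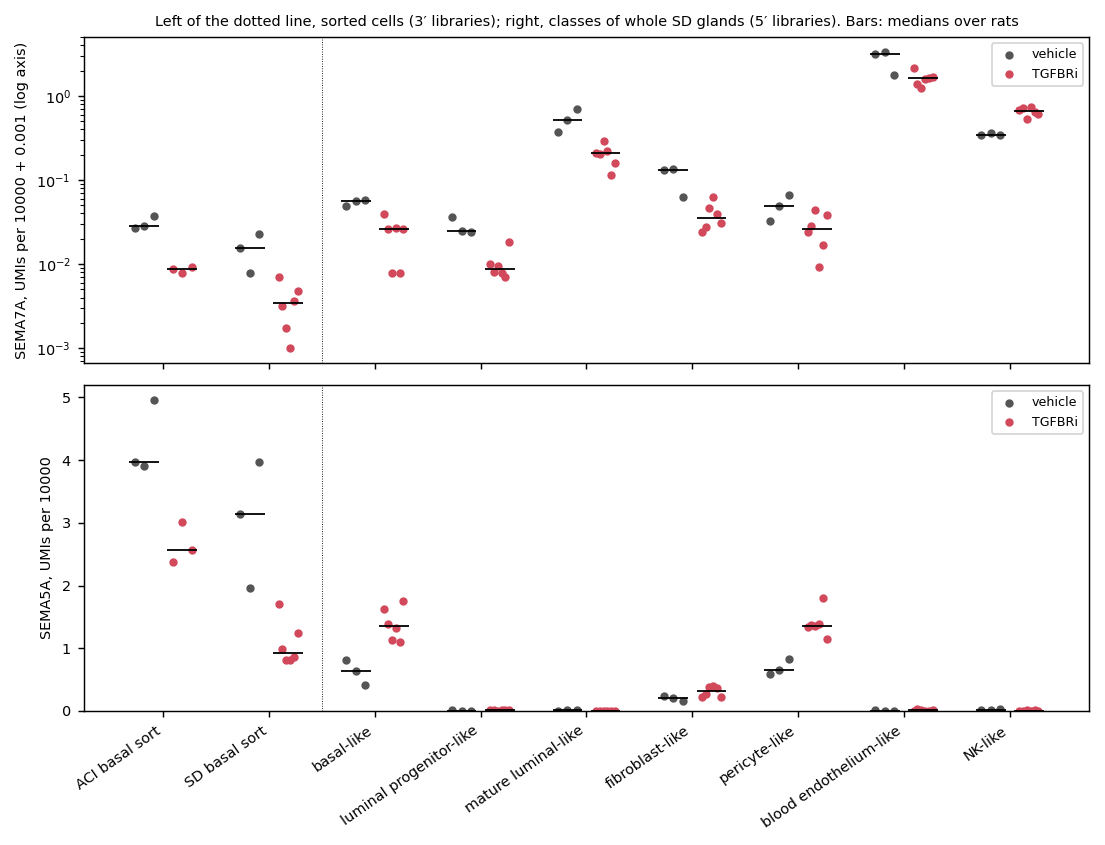
UMIs per 10000 of SEMA7A (log axis, 0.001 added) and SEMA5A (linear axis) in the ACI and SD basal sorts and in 7 whole-gland classes, each point 1 rat and each bar the median over rats, in vehicle and TGFBRi. SEMA5A is lower after TGFBRi in both basal sorts and higher in whole-gland basal-like cells, where vehicle rats lie at 0.416 to 0.814.

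In pericyte-like cells 4 of 6 tested plexins rose (PLXNA2, PLXNB1, PLXNB2 and PLXND1), against 9.91% of all genes rising, and in smooth muscle-like cells 3 of 5 (PLXNB1, PLXNB2 and PLXND1), against 6.61%. In blood endothelium-like cells 1 of 6 rose (PLXND1), against 14% of all genes, and in lymphatic endothelium-like cells 1 of 5 (PLXND1), against 6.59%. The plexins were singled out after their values were seen, and the difference between classes was not tested. In blood endothelium-like cells 9 of 46 tested genes changed, with 31.7% of all genes changed. PLXND1, which restrains vessel sprouting as a semaphorin receptor, was at 0.307, 0.468 and 0.674 in vehicle and 0.861 to 1.24 in TGFBRi rats (0.93, SE 0.22, edgeR adjusted p = 0.0043). It was also higher in lymphatic endothelium-like cells (1.39, SE 0.36), where 4 of 37 genes changed against 15.9%, and in pericyte-like (0.76, SE 0.25) and smooth muscle-like cells (1.04, SE 0.35). EPHB4 rose in blood endothelium-like cells, from 0.0689, 0.0992 and 0.157 to 0.182 to 0.237 (0.74, SE 0.26), and its ligand EFNB2, the arterial ephrin, rose there by 0.42 (SE 0.17). Both calls were lost without vehicle rat veh1, and that of EFNB2 also without veh2 or TGFBRi rat ly4.

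In pericyte-like cells 13 of 45 genes changed, against 23.7% of all genes. SEMA4C was at 0.196, 0.241 and 0.399 in vehicle and 0.829, 1.00 and 1.304 as lowest, median and highest in TGFBRi rats (1.65, SE 0.25, edgeR adjusted p = 2.8e-04). SEMA5A was at 0.587, 0.646 and 0.826 in vehicle and 1.15, 1.36 and 1.80 (0.82, SE 0.19). In smooth muscle-like cells 10 of 28 genes changed, against 17.9%, among them EPHA4 (1.51, SE 0.38) and SEMA4C (1.32, SE 0.32), both higher. In fibroblast-like cells 11 of 58 changed, against 29.2%, with NRP1 at 0.836, 0.837 and 0.945 as lowest, median and highest in vehicle and 1.29, 1.47 and 1.63 in TGFBRi rats (0.53, SE 0.14, edgeR adjusted p = 0.020) and EFNB2 lower (-0.94, SE 0.19).

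In luminal progenitor-like cells 14 of 54 genes changed, against 30.3% of all genes. EFNB2 was at 0.717, 0.461 and 0.912 in vehicle and 0.207 to 0.343 in TGFBRi rats (-1.40, SE 0.26, edgeR adjusted p = 0.0016), and SEMA3E, the ligand of PLXND1, was at 0.349, 0.254 and 0.194 against 0.0386 to 0.0904 (-2, SE 0.33). In mature luminal-like cells 10 of 48 changed, against 27.6%. SEMA3E fell there as well (-1.09, SE 0.21), and PLXNA3 rose (1.504, SE 0.33), from 0.0296 to 0.0355 in vehicle to 0.0660 to 0.143.

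SEMA4A rose in 7 whole-gland classes of the same rats, the most rises of the axon guidance genes, and was singled out after its values were seen. In dendritic-like cells it was at 2.05, 2.38 and 1.77 in vehicle and 3.06, 3.41 and 3.90 as lowest, median and highest in TGFBRi rats (0.73, SE 0.16, edgeR adjusted p = 0.0085), and PLXNC1, the plexin that binds SEMA7A, rose there too (1.12, SE 0.28), where 2 of 26 genes changed against 4.72% of all genes. In T-like cells SEMA4A rose by 1.05 (SE 0.20), among 4 of 42 changed genes against 9.27%, and in NK-like cells by 0.90 (SE 0.27), among 3 of 21 against 3.39%. In B-like cells 4 of 39 changed against 17.1%, with SEMA4D higher (0.47, SE 0.13). In macrophage-like cells only EFNB3 of 40 changed (2.33, SE 0.71), against 3.61%, and in Schwann-like cells only NRP2 of 44 (0.95, SE 0.31), against 11%.

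Single rats also moved whole-gland counts by over 1.5 times. Without vehicle rat veh4 the count became 18 in blood endothelium-like, 20 in fibroblast-like, 7 in macrophage-like and 4 in Schwann-like cells, where 43.3%, 36.7%, 10.2% and 12.3% of all genes were called. Without veh2 it became 5 in blood endothelium-like, 9 in luminal progenitor-like, 8 in pericyte-like, 5 in smooth muscle-like, 2 in B-like and 0 in macrophage-like cells. There 22.3%, 29.1%, 15.4%, 11.1%, 12.1% and 1.73% of all genes were called. Without veh1 it became 0 in NK-like and 2 in macrophage-like cells, where 2.62% and 4.05% of all genes were called. Leaving out TGFBRi rats gave 5 in smooth muscle-like cells without ly4 or ly6 and 6 without ly11 or ly14, 2 in B-like cells without ly1, ly2 or ly6, 0 in macrophage-like cells without ly1, ly4, ly6 or ly14, and 2 in Schwann-like cells without ly2. The shares of all genes called in these fits were 13.6% to 15.6% in smooth muscle-like and 13.4% to 15% in B-like cells. They were 1.68% to 2.23% in macrophage-like and 9.36% in Schwann-like cells. The EFNB3 call in macrophage-like cells was lost without veh2, ly1, ly2, ly4, ly6 or ly14, and the SEMA4A call in NK-like cells without veh1. In smooth muscle-like cells DESeq2 called 4 and the set without likely doublets 6, and the shares of all genes called there are not given.

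Pathway genes moved in both directions in single cells after TGFBRi. Of the tested co-receptors and other ligands 4 of 21 rose and 2 fell in ACI basal, 3 of 21 rose and 4 fell in SD basal, and 3 of 21 rose and 8 fell in whole-gland basal-like cells. Of all genes 33%, 24.7% and 44.2% changed in these 3 sets. Of the cytoplasmic effectors 6 of 38 rose and 11 fell, 3 of 38 rose and 10 fell, and 9 of 38 rose and 11 fell in the same 3 sets. In luminal cells 2 of 18 co-receptors and ligands rose and none fell in ACI and none of 19 rose and 2 fell in SD, and 5 of 39 effectors rose and 5 fell in ACI and 3 rose and 10 fell in SD, where 25% and 31.8% of all genes changed.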

How the data were processed

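The authors aligned the bulk reads to rn6 with STAR 2.5.1b, counted them per gene without strand with HTSeq and deposited counts divided by DESeq2 1.30.1 size factors, here called normalised reads, a signal that is not per length. Steps in these values gave whole reads in 100% of 2526550 values above 0 (tolerance 0.001). The deposited single-cell tables hold raw UMI counts from Cell Ranger, already filtered by the authors (4.0.0 for sorted cells, 7.0.0 for whole glands). The sorted tables hold as many cells as the paper kept after dropping cells with CD45 reads or few keratin reads. It also dropped cells in clusters made up almost wholly of the other sort. Expression thus had a part in which cells stand in each sort. The whole-gland tables had no keratin filter.

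Bulk values were tested as log2(value + 1) with limma 3.58.1 (trend, robust) over genes summing to at least 10, calling an adjusted p of 0.05 or less (Benjamini-Hochberg, all genes). Fold changes on that scale understate changes of low genes. edgeR 4.0.16 and DESeq2 1.42.0 on recovered reads were alternatives, because the tables were not raw counts as first planned. UMIs were summed per rat over each whole sort as deposited, or per class in whole glands, and tested with edgeR's quasi-likelihood test (at least 10 UMIs, adjusted p of 0.1 or less), with standard errors from DESeq2. Cells were clustered with scanpy 1.11.5 (Leiden 0.8, 20 neighbours, 30 components, 2000 genes, without the axon guidance genes). Doublets were kept, and leaving out the top 6% by Scrublet score was an alternative. The scripts were tested on simulated data.

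The genes, lists and comparisons were chosen with earlier results of these data known. Named genes were, per comparison and family, the called genes with the 2 largest changes in each direction among those with a mean of at least 50 reads or 20 UMIs, the 3 highest per class for levels, and their ligands or receptors. Genes named outside that rule, such as those described across several comparisons, were chosen after their values were seen. Basal and luminal cells came from the same rats, and their deviations correlated at 0.0526 to 0.866 in ACI (6 of 9 pairs over 0.1) and 0.0926 to 0.201 in SD (3 of 4). P-values weigh a difference in group means against the spread between rats within groups, pooled over all groups of a model. The bulk lineage models also held treated rats, and that of SD the NMU rats. Main lineage fits were not paired by rat.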

Additional observations from a re-analysis of the deposited data

Results flagged for a closer look

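Values were checked in 150 sets, each 1 called gene in 1 group of 4 to 10 samples, and 8 sets held a sample far from the others. By chance about 1 in 20 independent sets would, which is near the share seen. The sets share libraries and were not independent. In SD vehicle luminal libraries EPHA3 was at 26.2 normalised reads in rat C6N against 0 to 2.02 in the others, and SEMA3A at 21.7 against 0 to 2.77. That library also held the high basal-list sum of 68721. In single cells of TGFBRi rats, the outlying values in UMIs per 10000 were EFNA4 0.0613 in SD13, PLXNB1 0.116 and SEMA4B 0.265 in basal-like cells of ly4 and ly11, and PLXNC1 2.34 in dendritic-like cells of ly1. SEMA3C was at 0.134 in luminal progenitor-like cells of ly11 and SEMA5A at 1.80 in pericyte-like cells of ly11.

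The TGFBRi effect in adult basal cells differed between virgin and parous rats by -6.22 on the log2 scale for PLXNA3, -1.78 for PLXNB2 and -9.89 for PLXNB3, by limma's test of the difference. In the bulk libraries the basal-luminal difference had opposite signs in the 9 ACI and the 4 SD vehicle rats for EFNA4 (median 1.10 in ACI, -1.16 in SD), NRP1 (-1.70 and 1.73) and SEMA6C (0.82 and -0.57), and this was not tested. The single-cell sets did not show this, since there NRP1 was called luminal-high and EFNA4 basal-high in both strains, and SEMA6C was called basal-high in ACI and not called in SD rats. Of the 8 genes called lower over whole SD basal sorts and higher in whole-gland basal-like cells, 6 had no overlap between the groups in either set, and the difference was not tested for them either. These were EPHA7 (-1.55 and 1.07), NTN4 (-1.68 and 2.31), PLXNB1 (-1.10 and 0.56), SEMA4G (-1.08 and 2.59), SEMA5A (-1.13 and 1.14) and SEMA6D (-1.22 and 1.51). Within the basal-like cells of the SD sorts NTN4 overlapped, and the count of sorted SD calls rested on single rats, as given above.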

How the results depend on the processing

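No result reversed under the alternatives run. Counts of called axon guidance genes moved by over 1.5 times as follows, and the cause was not tested. The shares of all genes called under these settings are not given, so the counts do not show a change particular to these genes. For young ACI basal cells 1 became 0 with edgeR, 6 with DESeq2, 4 with a pseudocount of 5 and 4 with only the groups compared. For adult rats 13 became 8 with edgeR, 4 with only the groups compared and 7 with the animal label as a block. Adult vehicle and TGFBRi rats share only a tag such as N1N. Of the vehicle samples, 2 of 4 virgin basal and 1 of 4 parous basal ones correlated best with their own label. In virgin luminal and in parous luminal samples 0 of 4 did. For NMU rats 1 became 4 with edgeR, 14 with DESeq2, 0 with no filter and 2 with only the groups compared. For CD45+ cells 3 became 0 with edgeR, 1 with a pseudocount of 5 and 0 with only the groups compared. For young ACI luminal cells 0 became 8 with DESeq2 and 6 with only the groups compared, and for day 14 against day 0 it became 2 and 5. DESeq2 gave 2 for parity, 2 for the estrogen experiment and 1 for NMU tumors, where limma gave 0. For E2 against no E2, 2 became 1 with edgeR and 6 with DESeq2.

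Leaving out single libraries gave 0 to 4 for young ACI basal, 6 to 23 for adult, 0 to 21 for NMU, 0 to 9 for young ACI luminal, 0 to 4 for CD45+ cells and 1 to 3 for E2 against no E2. In NMU basal cells of tumor-bearing rats, 3 axon guidance genes were called without TGFBRi tumor-bearing basal library 1, against 0 in the main fit. There 9.01% of all genes were called, against 1.31% in the main fit. In the estrogen experiment the count moved only in fits that left 1 tumor-bearing TGFBRi rat in its group, and those counts are not given. The rat as a replicate block was run for the lineage comparisons only. Their counts were then 48 and 33 in bulk and 51 and 49 in single cells, for ACI and SD. The shares of all genes called in these block fits are not given, so the counts are not set against all genes.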
